A study of Homo sapiens with 6 samples.

Results

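Transcript levels of 9 genes of the epidermal growth factor (EGF) receptor system were compared in Panc-1 cells. The genes were picked by name, with earlier results of these data known, from a count table of 58735 genes. They are the ligand genes HBEGF, EREG, AREG and TGFA, the receptor genes EGFR, ERBB2 and ERBB3, and the inhibitor genes ERRFI1 and LRIG1. All 9 were found in the table under a single identifier each, and all 9 passed the filter on low counts. Panc-1 is an established line from a human pancreatic carcinoma, labelled wild type in genotype and epithelial in type. In the comparison group it was kept for 72 h with cancer-associated fibroblasts (CAF), and its columns in the table carry the letters NC, which the labels do not spell out. In the other group, called CAF-PAI-1 here, the CAF partner overexpressed PAI-1. Each group had 3 libraries called biological replicates. No label tells whether they were separate experiments, so the spread between them may be technical, and the labels do not tell how Panc-1 cells and CAF were parted before RNA extraction.

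EGF family ligands are made as membrane-anchored precursors that metalloproteases cut free at the cell surface. The freed ligand binds its receptor, receptors pair, and their kinase domains switch on RAS-ERK and PI3K-AKT signalling. EGFR binds HBEGF, EREG, AREG and TGFA, ERBB2 has no known soluble ligand and acts as a partner, and ERBB3 binds neuregulins and has a weak kinase that makes it rely on its partners. Several ligand genes and ERRFI1, whose product binds the EGFR kinase and shuts it off, are themselves induced by ERK signalling, while LRIG1 is a membrane protein that restrains ERBB receptors.

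The stretches before the transcription start of HBEGF, EREG, AREG and ERRFI1 are shown because these 4 genes had the largest rises among the 9. Each is the 250 bases before the RefSeq start on GRCh38.p14, written along the gene's own strand, and capitals mark matches to the motifs named after them. The HBEGF stretch is chr5:140346604-140346853 on the minus strand, EREG chr4:74364895-74365144 and AREG chr4:74444886-74445135, both on the plus strand, and ERRFI1 chr1:8026310-8026559 on the minus strand.
HBEGF: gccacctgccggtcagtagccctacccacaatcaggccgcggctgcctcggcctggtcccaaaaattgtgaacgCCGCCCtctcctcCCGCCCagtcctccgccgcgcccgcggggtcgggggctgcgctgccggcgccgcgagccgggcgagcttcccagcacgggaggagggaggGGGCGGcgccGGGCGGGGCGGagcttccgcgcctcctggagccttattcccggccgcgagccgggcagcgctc
EREG: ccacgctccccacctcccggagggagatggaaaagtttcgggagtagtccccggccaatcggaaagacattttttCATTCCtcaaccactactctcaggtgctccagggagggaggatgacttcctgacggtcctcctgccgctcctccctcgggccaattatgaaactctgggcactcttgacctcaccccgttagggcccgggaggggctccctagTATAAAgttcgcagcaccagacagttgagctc
AREG: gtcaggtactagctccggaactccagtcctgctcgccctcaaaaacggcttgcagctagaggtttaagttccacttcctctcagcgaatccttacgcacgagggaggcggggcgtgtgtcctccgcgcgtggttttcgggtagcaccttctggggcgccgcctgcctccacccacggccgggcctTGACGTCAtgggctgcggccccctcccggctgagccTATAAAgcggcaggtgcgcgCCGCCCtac
ERRFI1: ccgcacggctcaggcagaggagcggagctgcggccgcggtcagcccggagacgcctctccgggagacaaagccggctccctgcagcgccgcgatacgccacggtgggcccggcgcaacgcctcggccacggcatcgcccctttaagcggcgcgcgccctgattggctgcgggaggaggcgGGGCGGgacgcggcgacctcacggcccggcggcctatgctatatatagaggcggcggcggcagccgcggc

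EREG and AREG, which are neighbours on chromosome 4 with 56382 bases between them, both held the TATA box letters TATAAA, from 32 to 27 bases before the start in EREG and from 29 to 24 in AREG. TATAAA was found in 11.5% of 35116 RefSeq windows of 300 bases (250 before the start and 50 from it). Only these exact letters were searched, so the similar letters TATATATA near the end of the ERRFI1 stretch were not counted. AREG also held the cyclic AMP response element TGACGTCA, from 65 to 58 bases before its start, which was in 1.85% of windows. HBEGF held GGGCGG, the core of SP-type sites, at 5 places, and ERRFI1 and AREG at 1 place each, against 45.0% of windows with at least 1 match. EREG held no GGGCGG, and its other match was GGAATG, the letters bound by TEAD factors, present in 14.0% of windows. The AP-1 letters TGANTCA (7.71% of windows), the EGR letters GCGNGGGCG (9.43%), the ETS letters CCGGAAG (10.3%), the E-box CACGTG (7.26%), the FOX letters TGTTTAC (3.42%) and the CArG box (1.29%) had no match in these 4 windows. Motifs were searched on both strands, and the only overlapping matches were a pair of GGGCGG in HBEGF. GC content was 76.4% for HBEGF, 75.2% for ERRFI1, 65.2% for AREG and 58.0% for EREG, where the median over all windows was 58.0%. A match describes letters and shows no binding.

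Of the 9 genes, 6 rose and 1 fell with CAF overexpressing PAI-1, and 2 did not pass the test. "Rose" and "fell" mean an adjusted p under 0.05 by edgeR's quasi-likelihood test, with Benjamini-Hochberg adjustment over all 14960 genes tested, and every adjusted p of a gene below is from it. Across those genes 32.2% were called, 17.2% higher and 15.0% lower (2571 and 2239 genes, or 1839 and 3182 with libraries scaled by size alone). Levels are given as CPM, a gene's counts scaled to a common library total, with TMM (trimmed mean) library factors unless stated. The median log2 fold change was 0.89 over the 9 genes and -0.0015 over all genes tested. Because the 9 genes were chosen with earlier results of these data known, their shares and medians beside those of all genes only describe them. All 4 ligands rose, the receptors went 1 up and 1 down, and of the inhibitors ERRFI1 rose. The groups did not overlap for 8 of the 9 genes, LRIG1 being the exception, where 43.4% of all tested genes had no overlap. In 6 of the 8 the CAF-PAI-1 libraries were the higher ones, against 22.3% of all genes, and in ERBB2 and ERBB3 the lower ones, against 21.1%.

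**Figure D1:**
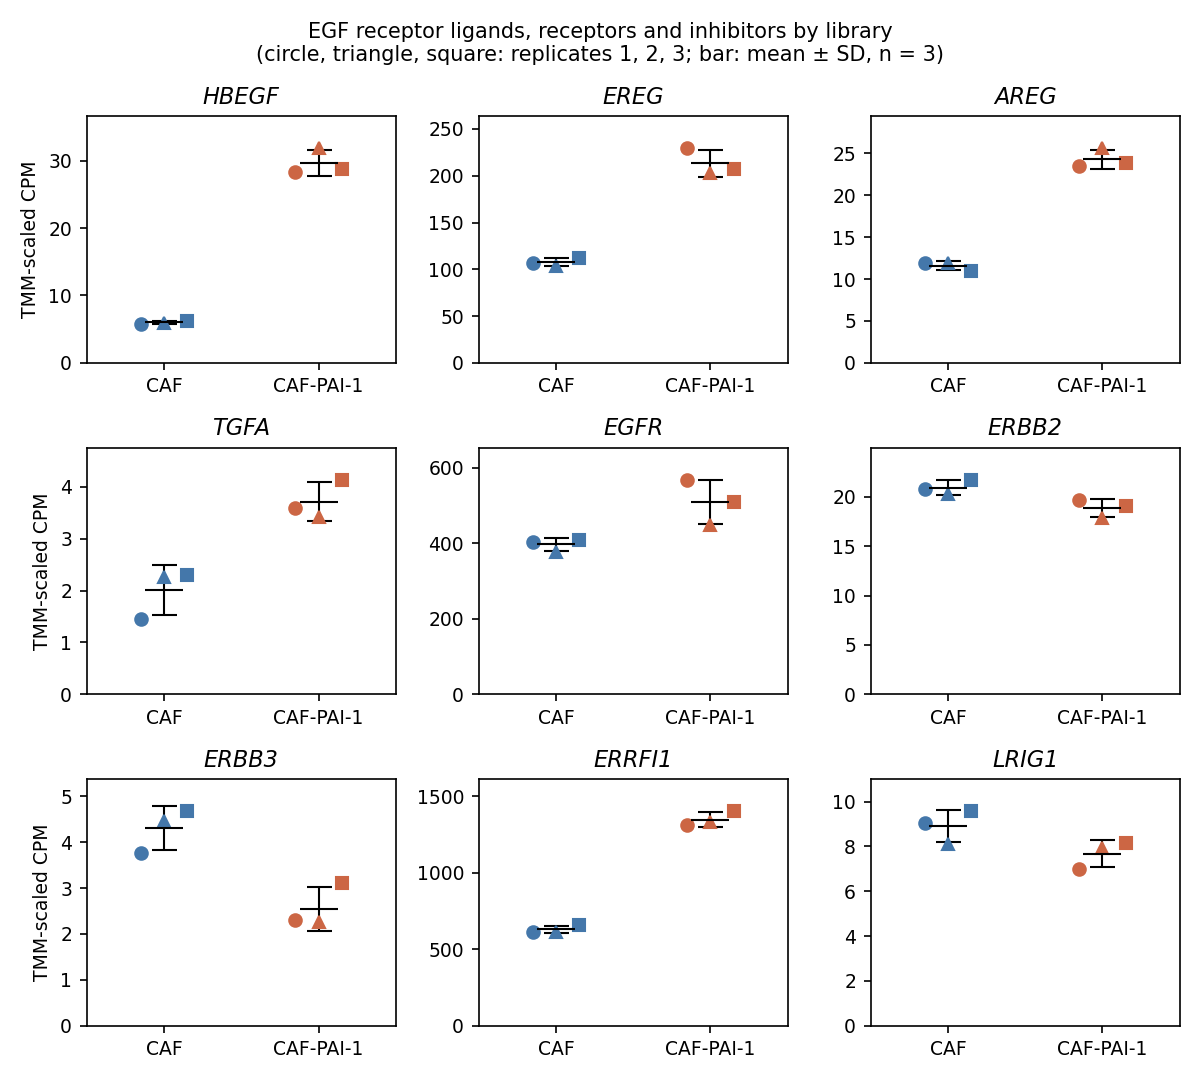
TMM-scaled CPM of each gene on a linear axis from 0, for 3 libraries with CAF and 3 with CAF overexpressing PAI-1 (CAF-PAI-1), with mean ± SD as a bar. HBEGF lies at 5.83 to 6.26 CPM with CAF and at 28.4 to 31.8 CPM with CAF-PAI-1, and LRIG1 alone has groups that overlap.

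Totals ran from 13628508 to 16006880 counts, so 3 counts in a library correspond to 0.187 to 0.220 CPM. The 9 genes took 0.117% to 0.126% of counts with CAF and 0.204% to 0.215% with CAF-PAI-1. Epithelial keratins were abundant, with KRT8 at a mean of 1074 and KRT18 at 663 CPM (library total alone), although EPCAM and CDH1 were low at 7.56 and 1.35 CPM. The extraction text of the labels names Cal27, a squamous line, with Stattic or DMSO, where the other labels name Panc-1, but KRT5 and KRT14 had 1 count each over all 6 libraries and 7 of 8 squamous markers, TP63 among them, stayed below 1 CPM throughout, SFN excepted, whose mean was 87.9 CPM with CAF and 139 CPM with CAF-PAI-1. For fibroblasts 10 of 12 markers never reached 1 CPM, with at most 2 counts per library for DCN, LUM, COL1A2, FAP and PDGFRA. The other fibroblast markers, COL1A1 and COL3A1, went from 189.6 to 250.5 and from 5.33 to 6.28 CPM (edgeR adjusted p = 1.71e-06 and 0.198). The summed list, nearly all of it COL1A1, ran from 173 to 212 CPM with CAF and from 237 to 274 CPM with CAF-PAI-1. Whether fibroblast RNA had a part in the results was not tested. Immune markers other than CD14, such as PTPRC, and endothelial markers other than KDR, such as VWF, were under 1 CPM throughout. KDR rose from a mean of 0.848 to 1.81 CPM (log2 fold change 1.13, edgeR adjusted p = 0.0172). Less RNA per cell and fewer cells of a type cannot be told apart in bulk samples. The share of mitochondrial counts was 5.53%, 5.81% and 5.92% in the CAF libraries and 5.12%, 3.78% and 4.76% in the CAF-PAI-1 libraries. Every CAF-PAI-1 library was lower, replicate 2 the lowest, and the part of this difference in the results was not tested.

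HBEGF (ENSG00000113070), heparin-binding EGF-like growth factor, showed the largest rise of the 9 genes. The gene occupies bases 140332843 to 140346631 of chromosome 5, minus strand (GENCODE 29 on GRCh38, as for all gene positions below). CAF libraries held 96, 95 and 87 counts, or 5.83, 5.98 and 6.26 CPM, and CAF-PAI-1 libraries 419, 438 and 445 counts, or 28.4, 31.8 and 28.8 CPM. The lowest CAF-PAI-1 library was thus far above the highest CAF library. The mean went from 6.02 ± 0.218 to 29.6 ± 1.89 CPM (SD, n = 3 each), which is 4.92-fold, with a log2 fold change of 2.30 (SE 0.12, 95% interval 2.06 to 2.54, edgeR adjusted p = 5.16e-17). Among all 14960 genes it stood at rank 16 from the highest log2 fold change.

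EREG (ENSG00000124882), which encodes epiregulin, a ligand of EGFR and ERBB4, was the most abundant of the 4 ligand genes. Its position is chromosome 4, 74365143 to 74388751, plus strand. Its levels were 107, 104 and 112 CPM with CAF and 229, 203 and 207 CPM with CAF-PAI-1, so every library of the second group was above all of the first. The mean rose from 108 ± 4.24 to 213 ± 14.1 CPM (SD, n = 3 each), a log2 fold change of 0.99 (SE 0.059, 95% interval 0.87 to 1.11, edgeR adjusted p = 4.03e-15).

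AREG (ENSG00000109321), which encodes amphiregulin, an EGFR ligand, lies further along the same strand, from 74445134 to 74455009. CAF libraries had 12.0, 11.9 and 10.9 CPM and CAF-PAI-1 libraries 23.4, 25.6 and 23.9 CPM. The groups did not overlap, and libraries of a group stayed close together. Its log2 fold change was 1.06 (SE 0.11, 95% interval 0.85 to 1.28, edgeR adjusted p = 9.22e-10), or 2.09-fold. The hg19 build named in the submitters' processing notes carries a near-identical second copy of the gene (AREGB), while the table has a single AREG row, so how reads were shared between copies is uncertain.

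TGFA (ENSG00000163235), which encodes transforming growth factor alpha, was the scarcest of the 4 ligand genes. Its gene spans 70447280 to 70554193 on the minus strand of chromosome 2. Counts were 24, 36 and 32 with CAF and 53, 47 and 64 with CAF-PAI-1, or 1.46, 2.27 and 2.30 CPM against 3.59, 3.41 and 4.14 CPM. All CAF-PAI-1 libraries were higher, but CAF replicate 1 stood well below its group. The log2 fold change was 0.89 (SE 0.25, 95% interval 0.39 to 1.40, edgeR adjusted p = 0.00525). Without CAF replicate 1 it was 0.70 with an adjusted p of 0.0484 by the same test, so the call held narrowly.

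**Figure D2:**
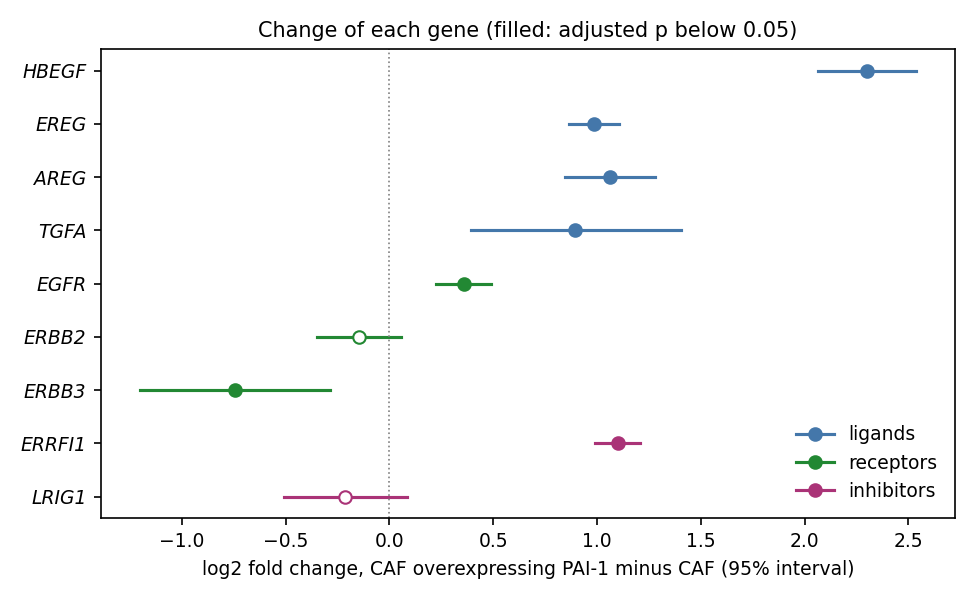
Log2 fold change of each gene, CAF overexpressing PAI-1 minus CAF, as points with 95% intervals, filled where the edgeR adjusted p was under 0.05. The HBEGF interval, 2.06 to 2.54, lies above those of all other genes, while the EREG, AREG and TGFA intervals overlap each other.

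Ratios between the ligand genes were taken within each library and compared between the groups. The ratio of HBEGF to EREG in CPM was 0.0545, 0.0578 and 0.0558 with CAF and 0.124, 0.157 and 0.139 with CAF-PAI-1, a 2.48-fold shift with no overlap. AREG to EREG stayed in a common range, at 0.112, 0.115 and 0.0976 with CAF and 0.102, 0.126 and 0.115 with CAF-PAI-1. TGFA to EREG overlapped as well, at 0.0136 to 0.0219 with CAF and 0.0157 to 0.0200 with CAF-PAI-1. These ratios were chosen after the values were seen and tested by a 2-sided exact permutation test over libraries, together with that of ERRFI1 to EGFR below. The p was 0.1 for HBEGF to EREG, the smallest that 3 against 3 allows (0.2 adjusted over the 4 ratios). It was 0.4 for AREG to EREG and 0.8 for TGFA to EREG, with adjusted values of 0.533 and 0.8. This test cannot give a p under 0.05 with 3 libraries in each group.

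Levels of different genes were set side by side as CPM per kilobase of annotated exon. On this scale the summed level of the 4 ligands was 28.2, 27.8 and 28.8 in the CAF libraries and 64.4, 62.2 and 61.1 in the CAF-PAI-1 libraries, 2.22-fold higher in the mean. EREG made up 66.6% ± 1.46 of the sum with CAF and 59.5% ± 2.61 with CAF-PAI-1 (SD, n = 3 each). The share of HBEGF went from 7.06% ± 0.190 to 15.7% ± 1.18, and its 2 groups did not overlap. AREG held 24.9% ± 1.63 and 23.6% ± 1.44, and TGFA 1.43% ± 0.339 and 1.20% ± 0.145, with overlapping groups for both. EREG therefore stayed the main ligand transcript of the 4 in every library, although its share was lower in each CAF-PAI-1 library.

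**Figure D3:**
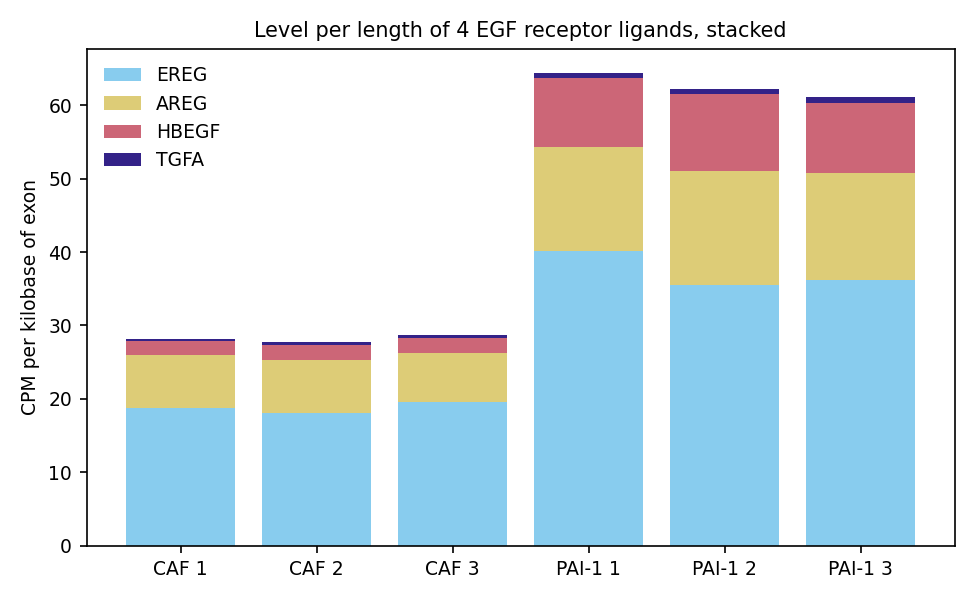
Stacked CPM per kilobase of exon of EREG, AREG, HBEGF and TGFA in each library, with CAF 1 to 3 the CAF replicates and PAI-1 1 to 3 the replicates with CAF overexpressing PAI-1. Totals stand at 27.8 to 28.8 with CAF and 61.1 to 64.4 with PAI-1 overexpression, with the HBEGF segment widening the most in proportion.

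EGFR (ENSG00000146648), the receptor of all 4 ligands, was abundant and rose modestly. The gene spans chromosome 7 from 55019021 to 55211628, plus strand, and its antisense partner EGFR-AS1 had 63 counts in all against 40869. CAF libraries had 405, 378 and 410 CPM and CAF-PAI-1 libraries 568, 450 and 511 CPM. Every CAF-PAI-1 library was above every CAF library, but the CAF-PAI-1 libraries were spread widely, with replicate 2 the lowest. The log2 fold change was 0.36 (SE 0.064, 95% interval 0.23 to 0.49, edgeR adjusted p = 7.15e-05), or 1.28-fold. It was 0.27 without CAF-PAI-1 replicate 1 and 0.44 without replicate 2.

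ERBB2 (ENSG00000141736), the partner receptor also known as HER2, did not pass the test. Its position is chromosome 17, 39687914 to 39730426, plus strand. It stood at 20.8, 20.3 and 21.7 CPM with CAF and at 19.7, 17.9 and 19.1 CPM with CAF-PAI-1. The CAF-PAI-1 libraries were the lower ones with no overlap, but the interval of the change included 0. The log2 fold change was -0.15 (SE 0.099, 95% interval -0.35 to 0.05, edgeR adjusted p = 0.274). The ERBB3 estimate of -0.74 lay outside this interval, but the ERBB3 interval, -1.20 to -0.29, overlapped it. Opposite-strand genes MIEN1 and PGAP3 share 571 and 194 of the 10321 exon bases of ERBB2, and without knowledge of strand use in counting such reads are uncertain.

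ERBB3 (ENSG00000065361), the neuregulin receptor, was the only one of the 9 genes to fall. The gene occupies chromosome 12 from 56076799 to 56103505, plus strand. Counts were 62, 71 and 65 with CAF and 34, 31 and 48 with CAF-PAI-1, or 3.76, 4.47 and 4.67 CPM against 2.30, 2.25 and 3.10 CPM. All CAF-PAI-1 libraries were lower, replicate 3 being nearest to the CAF group. The log2 fold change was -0.74 (SE 0.23, 95% interval -1.20 to -0.29, edgeR adjusted p = 0.0102), or 0.597 of the CAF level.

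ERRFI1 (ENSG00000116285), also known as MIG6, was the most abundant of the 9 genes in both groups. Its gene spans chromosome 1 from 8004404 to 8026308, minus strand. CAF libraries had 614, 616 and 658 CPM and CAF-PAI-1 libraries 1311, 1330 and 1403 CPM. All CAF-PAI-1 libraries were far above all CAF libraries, and each group was tight. The log2 fold change was 1.10 (SE 0.054, 95% interval 0.99 to 1.21, edgeR adjusted p = 2.63e-17), or 2.14-fold. The ratio of ERRFI1 to EGFR in CPM was 1.52, 1.63 and 1.60 with CAF and 2.31, 2.96 and 2.75 with CAF-PAI-1, 1.68-fold higher with no overlap (2-sided exact permutation p = 0.1, the smallest possible here, 0.2 adjusted over the 4 ratios).

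LRIG1 (ENSG00000144749), the other inhibitor, did not pass. Its position is chromosome 3, 66378797 to 66501263, minus strand. Levels were 9.04, 8.13 and 9.57 CPM with CAF and 6.97, 7.92 and 8.15 CPM with CAF-PAI-1, and the groups overlapped. The log2 fold change was -0.21 (SE 0.15, 95% interval -0.51 to 0.08, edgeR adjusted p = 0.281). Its exons share 907 of 7032 bases with SLC25A26 on the opposite strand, which had 2157 counts over the 6 libraries against 749 for LRIG1.

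In order of CPM per kilobase of exon, the CAF libraries ran ERRFI1 (150.4 ± 6.01), EGFR (31.8 ± 1.39), EREG (18.8 ± 0.741), AREG (7.04 ± 0.351), ERBB2 (2.03 ± 0.0703), HBEGF (2.00 ± 0.0722), LRIG1 (1.27 ± 0.104), ERBB3 (0.476 ± 0.0530) and TGFA (0.405 ± 0.0964; SD, n = 3 each). Neighbours ERBB2 and HBEGF, and ERBB3 and TGFA, overlapped between libraries, and the other neighbours did not. With CAF-PAI-1 the level of EREG reached 37.3 ± 2.46 against 40.7 ± 4.75 for EGFR, and these 2 overlapped. HBEGF, at 9.82 ± 0.625, stood above ERBB2 at 1.83 ± 0.0901, and TGFA, at 0.748 ± 0.0761, above ERBB3 at 0.282 ± 0.0529. The rank order was the same with the longest principal transcript as length (an alternative chosen after seeing the data), but ERBB2 and HBEGF were at 4.61 and 2.52 in the CAF libraries and no longer overlapped. ERBB3 and TGFA, at 0.727 and 0.466 on that scale, no longer overlapped there either.

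**Figure D4:**
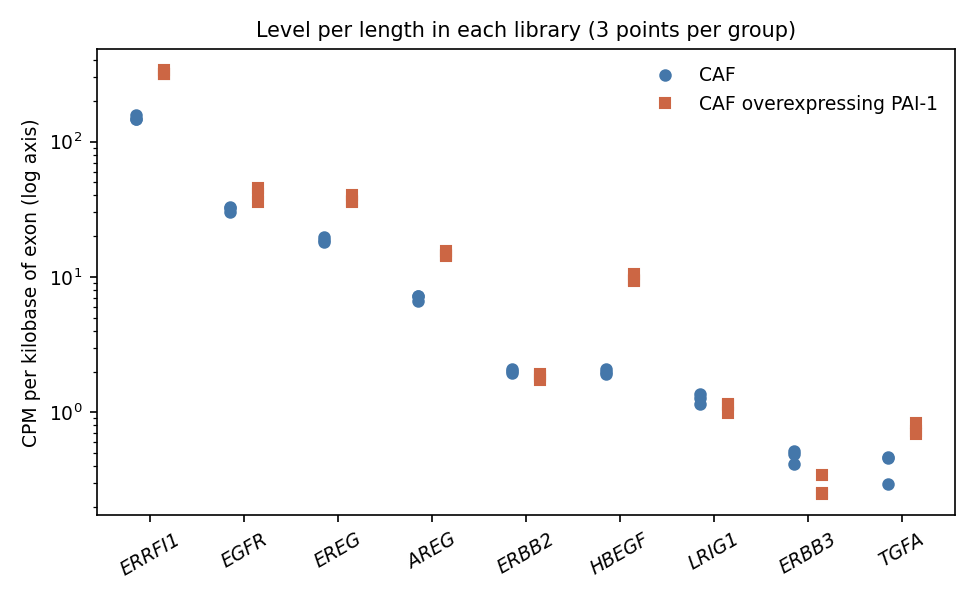
CPM per kilobase of annotated exon on a log axis for each gene, ordered by the CAF mean, with 3 circles for CAF and 3 squares for CAF overexpressing PAI-1. EREG comes up to the level of EGFR (37.3 and 40.7 in the mean) and HBEGF leaves the level of ERBB2 (9.82 and 1.83) in the CAF-PAI-1 libraries.

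The genes with the most similar profile to HBEGF, by Pearson's r of log2 CPM over the 6 libraries among 10951 genes of at least 5 CPM, were JUN (r = 0.9995), DNAJB1 (0.9994) and HSPA9 (0.9993). For EREG they were SKIL (0.9993), POGK (0.9986) and THBS1 (0.9984). For ERRFI1 they were TRA2B (0.9993), TUFT1 (0.9989) and GNL2 (0.9988). With 6 libraries in 2 groups many genes share a high r. Of the 10951 genes, 182, 141 and 145 reached at least 0.99 with HBEGF, EREG and ERRFI1, a bound below the values above. The values describe likeness over these libraries and carry no test.

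Of the other ligands, NRG1 was the most abundant and the only one that rose. NRG1, a neuregulin that binds ERBB3, had 74.6, 70.2 and 70.9 CPM with CAF and 92.2, 93.2 and 89.3 CPM with CAF-PAI-1 (log2 fold change 0.35, SE 0.062, edgeR adjusted p = 4.16e-05). NRG2, another neuregulin, fell from 13.2, 13.1 and 12.7 CPM to 8.26, 9.01 and 12.0 CPM (-0.41, SE 0.14, adjusted p = 0.0193), with replicate 3 of CAF-PAI-1 close to the CAF libraries. BTC and NRG4 had log2 fold changes of 0.01 (SE 0.29) and -0.45 (SE 0.46) and did not pass. EGF, EPGN and NRG3 had at most 3 counts in a library, and ERBB4 at most 6, too few to be tested. NRG1 was thus higher and its receptor gene ERBB3 lower with CAF-PAI-1.

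Genes of ligand release and receptor handling changed in both directions, as did all genes tested, of which 17.2% rose and 15.0% fell. Log2 fold changes were under 0.5 in size for those named. Of 11 tested genes for shedding and ligand release 5 rose and 2 fell, with a median log2 fold change of 0.17. ADAM17, the main sheddase of HBEGF, AREG, EREG and TGFA, rose by 0.39 (SE 0.074), ADAM19 rose by 0.32 (SE 0.060), the tetraspanin gene CD82 rose by 0.45 (SE 0.11), and NRDC, a peptidase that promotes HBEGF shedding, fell by 0.22 (SE 0.052) on the log2 scale. ADAM10, another sheddase, had -0.07 and did not pass. Of 6 tested genes listed as receptor partners, here associated proteins and no ERBB receptors, 4 rose and none fell. The chaperone genes HSP90AB1, HSP90AA1 and CDC37 among them had 0.38, 0.32 and 0.18. Of 12 further receptor inhibitors 2 rose and 1 fell, the phosphatase genes PTPN1 at 0.26 and PTPN12 at 0.22 against PTPRK at -0.26. Of 13 genes for endocytosis and degradation 2 rose and none fell, HGS at 0.32 and SH3KBP1 at 0.28, while RAB11A, a recycling GTPase gene, had -0.13 and CBL, the ligase that marks EGFR for degradation, -0.12, and neither passed. The share called was 63.6% of the shedding list and 66.7% of the receptor partners. It was 25% of the further inhibitors and 15.4% of the endocytosis list, against 32.2% of all genes. With libraries scaled by size alone the shedding list had 3 higher and 3 lower, the receptor partners 2 higher, the endocytosis list 2 higher and 2 lower, and the medians of the inhibitor and endocytosis lists turned from 0.04 and 0.03 to -0.03 and -0.04.

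Few genes of the RAS-ERK core passed the test, while most genes of the MAPK activity list rose. Of 13 RAS-RAF-MEK-ERK genes none rose and 1 fell, MAPK3, which encodes ERK1, at -0.22 (SE 0.078), and the median was -0.02. The groups of MAPK3 overlapped, at 48.9, 56.2 and 49.98 CPM with CAF and 42.4, 41.7 and 49.1 CPM with CAF-PAI-1. RASA1 at 0.16 and NRAS at 0.12, next by p, did not pass. Of 15 adaptors 3 rose and 4 fell (median -0.08), with the RAS exchange factor SOS1 at -0.67 (SE 0.064), GAB2 at -0.66 (SE 0.11) and GRB10 higher at 0.29 (SE 0.057). SOS1 had 104, 104 and 113 CPM with CAF and 70.7, 65.9 and 64.6 CPM with CAF-PAI-1. Of 10 PI3K-AKT genes 3 fell and none rose (median -0.10), PIK3R3 at -0.64 (SE 0.073), PIK3CA at -0.34 and PIK3CB at -0.18. With libraries scaled by size alone the RAS-RAF-MEK-ERK genes had 2 lower, the adaptors 2 higher and 7 lower, and the PI3K-AKT genes 5 lower. Of 9 tested genes of a MAPK activity list 7 rose and none fell, with a median log2 fold change of 1.04 where all genes had -0.0015. SPRY4, a feedback inhibitor, went from 71.7 ± 7.36 to 393 ± 18.2 CPM, EPHA2 from 295 ± 22.6 to 604 ± 27.4 CPM, and SPRY2 rose by 1.20 on the log2 scale, while ETV4 and ETV5 had -0.10 and -0.09 and did not pass. Over all 93 pathway genes tested 24 rose and 12 fell, or 38.7% called against 32.2% of all genes. The pathway lists were also chosen with earlier results of these data known, so their shares and medians only describe them.

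**Figure D5:**
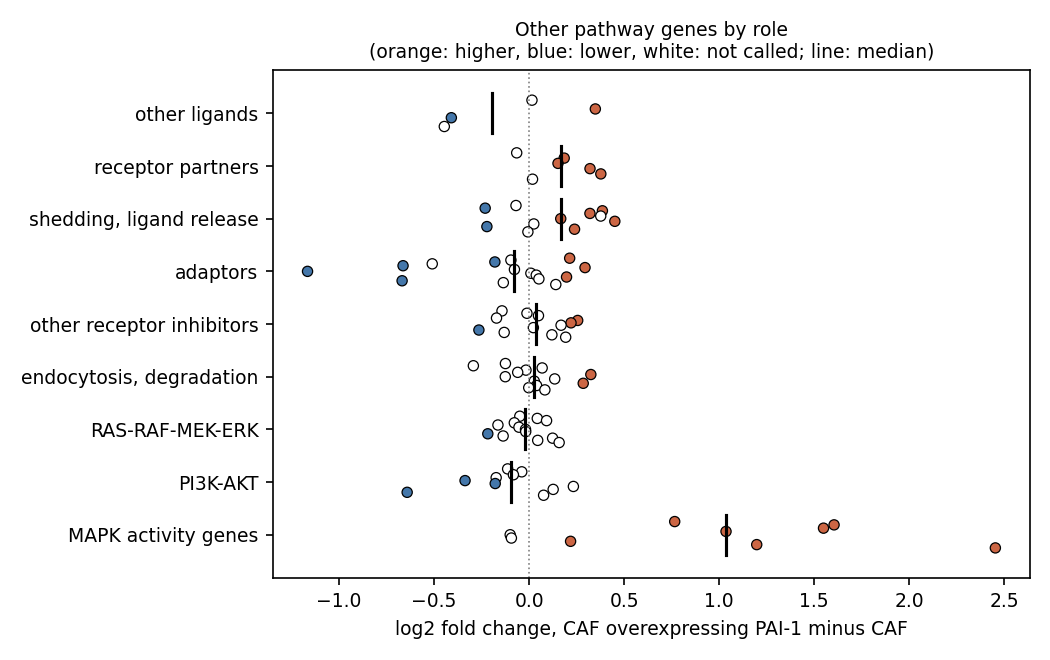
Log2 fold change, CAF overexpressing PAI-1 minus CAF, of 93 further pathway genes by role, orange where higher and blue where lower by the edgeR test, with a line at each list's median. The median is 1.04 for the MAPK activity genes and -0.02 for the RAS-RAF-MEK-ERK genes.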

How the data were processed

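RNA of 6 Panc-1 libraries was selected with oligo-dT beads, per the labels' protocols. The authors deposited whole-number counts per gene, with BWA, Bowtie2, RSEM and hg19 named without roles or versions in the submitters' processing notes; the counter, filters and strand setting are not given in the sources used here. Gene positions and exon lengths come from GENCODE 29 (GRCh38) and promoter windows from RefSeq (GRCh38.p14), found for 8 of the 9 genes; neither is the hg19 of the notes, so they identify genes and do not locate reads. The 9 genes, the pathway lists, markers and motifs were chosen with earlier results of these data known.

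The fit covered the whole table in edgeR 4.0.16 under R 4.3.3. Genes were kept by filterByExpr (10 counts in enough libraries and 15 in total), libraries were scaled by TMM, and glmQLFit (robust) with glmQLFTest contrasted the 2 groups with no further covariate. The standard error is the unshrunken log2 fold change over the root of F. The fit was tested on simulated data, where small fold changes were recovered less often than large ones and the share of false calls was above the adjusted p threshold. CPM are TMM-scaled unless the library total is named. Genes outside the 9 were named by a rule: the 3 smallest p per pathway list, all other ligands, the 3 most similar profiles and the 2 most abundant markers per list; NRDC, ADAM10, CBL, ERBB4, ETV4, ETV5, EPCAM, CDH1 and markers at or near 0 were named beyond it, after their values were seen. Protein sequences were not used here. DESeq2 1.42.0 and limma 3.58.1 (voom) served as alternatives. Intervals cover the spread between these libraries. The level of the overexpressed gene is not reported here.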

Additional observations from a re-analysis of the deposited data

How the results depend on the processing

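The 9 genes were refitted with RLE scaling, library size alone, no filter on low counts, a mean of at least 1 CPM, DESeq2, limma-voom, no robust estimation, a replicate block, and without each of the 6 libraries in turn. In all 14 of these fits 7 of the 9 genes were called, 6 higher and 1 lower, and each gene kept its direction and its side of the threshold. Log2 fold changes ranged from 2.23 to 2.33 for HBEGF, 0.92 to 1.02 for EREG, 1.00 to 1.09 for AREG, 0.70 to 1.00 for TGFA, 0.27 to 0.44 for EGFR, -0.21 to -0.11 for ERBB2, -0.91 to -0.67 for ERBB3, 1.03 to 1.13 for ERRFI1 and -0.28 to -0.15 for LRIG1. The calls nearest to the threshold were TGFA without CAF replicate 1 (adjusted p = 0.0484) and ERBB3 without CAF replicate 3 (adjusted p = 0.0456), both by edgeR, and the low counts of these 2 genes limit their precision. Over all genes, library size alone gave 1839 higher and 3182 lower in place of 2571 and 2239, and among the pathway lists 19 higher and 21 lower in place of 24 and 12. Leaving out each library gave 3942 to 4673 genes changed and 30 to 37 pathway genes (20 to 25 higher, 8 to 15 lower), where all 6 libraries gave 4810 and 36. The deviations of same-numbered libraries from their group means correlated across genes with r = 0.041, 0.155 and 0.018 for replicates 1, 2 and 3. CAF replicates 1 and 2 correlated best with the same number in the other group, and CAF replicate 3 with replicate 1. The labels state no analysis design, so the main fit did not take the numbers as pairs. Whether they mark pairs is not settled by these values. The replicate block gave 7 of the 9 genes and 5069 genes in all, against 4810 without it.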
